A study of Homo sapiens with 6 samples.

Results

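Single-exon protein-coding genes are genes whose annotated transcripts are never spliced. Of the 200023 peaks of poly(A) 3′ ends in IMR-32 cells, 479 (0.239%) had their summit in such a gene or up to 600 bp past its 3′ end. Gencode release 44 lists 20046 protein-coding genes, of which 992 have only transcripts of 1 exon. The 67 histone genes and 5 PCDH (protocadherin) genes among them were left out, which left 920 genes. A peak was found for 245 of these (26.6%, 95% Wilson interval 23.9 to 29.6%). The rule used gene models and summit positions, not the height of a peak.

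The peaks came from poly(A) 3′-seq of IMR-32, an established human neuroblastoma line, with a QuantSeq REV library kit, in which a read begins where the mRNA meets its poly(A) tail. The 6 libraries comprised 2 from cells treated with DMSO, the solvent, 2 from cells after 2 h of THZ531 at 400 nM and 2 after 6 h at that dose. All are the same line without an engineered allele, and THZ531 covalently blocks CDK12 and CDK13, kinases of RNA polymerase II. The deposited peak list pools the libraries, so no peak has a value for DMSO or THZ531 alone, no replicate spread can be given and the depth of each library is unknown.

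Most human genes are interrupted by introns. Genes without introns include several large families that arose by local duplication, such as olfactory receptors and keratin-associated proteins, as well as many regulators with short-lived mRNAs, and retrocopies made by reverse transcription of a spliced mRNA. Their mRNAs, unlike those of replication-dependent histones, are cleaved and polyadenylated like other mRNAs. The cleavage machinery recognises a hexamer a short way upstream of the cleavage site, most often AATAAA in the DNA, and a gene with several such signals can make mRNAs with 3′ UTRs of different length. Splicing and 3′ end formation are coupled at the last exon of most genes, a step that unspliced transcripts lack.

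Because a read starts at the end of the mRNA, the cleavage site of a narrow peak lies near the edge that faces the 3′ end of the gene, called the 3′ edge here. A wide peak can hold several sites, and its 3′ edge then marks at most the last of them, so values measured from the edge are also given for narrow peaks. The 30 bases that end at a 3′ edge lying within 50 bp of the annotated end are shown for genes that had the tallest or the most peaks, to show the signal where peak and annotation meet. This set was chosen after the values were seen. RRAGA, with a 3′ edge 46 bp past the annotated end, also meets this condition. It is shown in the next paragraph, and its last 30 bases hold no hexamer. Capitals mark any of the 12 polyadenylation signal (PAS) hexamers that the study searched for. All sequences are from GRCh38, 5′ to 3′ on the strand of the gene.
SOX11, chr2:5701360-5701389, plus strand: tAATAAAattgtgtgatcaatcttcacttg
SOX4, chr6:21598588-21598617, plus strand: ggaAATAAAatcagctggaactgaacccta
FZD2, chr17:44561232-44561261, plus strand: ataatAATAAAgtgcatttaattatctttg
PURB, chr7:44876298-44876327, minus strand: gtaacaAATAAAgtatgcagaaaagtgaat
KCTD12, chr13:76880173-76880202, minus strand: ctaaagAATAAAacattcactcctttaatt
TLNRD1, chr15:81005762-81005791, plus strand: tgaagttgATTAAAgttctaaacttaagcg
FEM1A, chr19:4801237-4801266, plus strand: tcatttgatgtcgATTAAAgcaatgatctt

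For the 10 nuclear genes with the tallest peaks, the tallest peak at the annotated transcript end was also read out. A transcript end here means a summit from 200 bp before to 600 bp after an annotated end. Of the 10 genes, 5 had such a peak with no other annotated gene at its summit. In BLOC1S4 and MAGEF1 the last 30 bases hold hexamers, in MAGEF1 an AATAAA that overlaps an AGTAAA. In IER5 and RRAGA the nearest hexamer is further upstream, so a second stretch of 30 bases is shown with it. In RHOB none of the 12 hexamers is within 100 bp of the edge of a peak that runs far past the annotated end.
BLOC1S4, chr4:6717721-6717750, plus strand: tttagtagtggGATAAAGAAAaggggcttg
MAGEF1, chr3:184710250-184710279, minus strand: gagtaAGTAAATAAAcAAGAAAttagcagt
IER5 at the edge, chr1:181093187-181093216, plus strand: aaacatgcttattgataggttctggacaag
IER5 with the hexamer, chr1:181093132-181093161, plus strand: aaaaaagtagccCATAAAgttatttttgct
RRAGA at the edge, chr9:19051042-19051071, plus strand: ataacttgaaagtgcttaatatgcaaatct
RRAGA with the hexamer, chr9:19050990-19051019, plus strand: gcttcattcatgAATAAAcgtgttagcaat
RHOB, chr2:20450957-20450986, plus strand: tctgtgttttatattatgggcagacaaaca

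The list holds no raw reads, but the number of reads stacked over each summit could be solved from the deposited fold and −log10 p, and is called reads at the summit. Its highest value was 200, which is the limit for reads of 100 bp if the peak caller kept 1 read per position and strand, its default. For reads of 1 strand the limit is then 100, and multi-exon peaks at transcript ends reached 100. Heights then count distinct start positions, so they are not levels of expression, and those near a limit are compressed. Over the whole list it ran from 3 to 200 with a median of 11. As a check of the cell type, all 11 neuroblastoma markers examined, among them PHOX2A, HAND2 and MYCN, had a peak at a transcript end, with at least 19 reads at the tallest summit. Of 5 markers of other cell types, EPCAM reached 7 reads and COL1A1 15, and PTPRC, PECAM1 and ALB had no peak at a transcript end.

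The single-exon genes with and without a peak differed by family. None of 204 olfactory receptor genes, 90 keratin-associated protein genes and 16 type I interferon genes had a peak, and neither did the 3 genes of the Prader-Willi region. Of 22 bitter taste receptor genes 4 had peaks, at 7 to 20 reads. For 3 of those 4 (TAS2R4, TAS2R20 and TAS2R31) another annotated gene lay at the summit, and for TAS2R42 the peak of 10 reads had its 3′ edge 553 bp past the gene's end. Together these sensory, hair and interferon families gave 4 of 332 genes (1.20%, 0.470 to 3.06%). Of the other 588 single-exon genes 241 had a peak (41.0%, 37.1 to 45.0%). Among 19054 multi-exon protein-coding genes the share with an exonic peak was 66.3% (65.6 to 66.9%). This share gives each peak to 1 gene and leaves out 1655 peaks in such genes on both strands and those at single-exon members. It is thus a lower bound, whereas single-exon genes were counted with every peak at them, shared ones included. The part of annotated exon length in this gap was not tested.

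**Figure D1:**
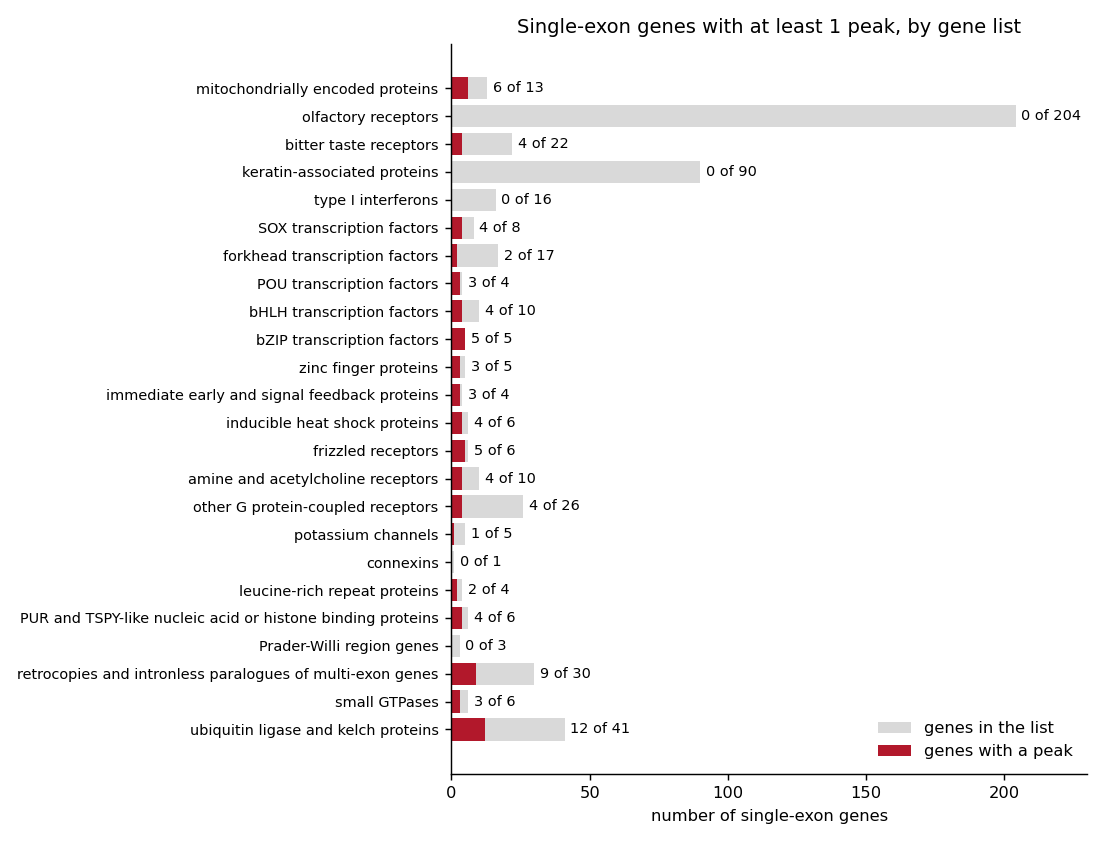
Number of single-exon genes in each of 24 lists (grey) and number with at least 1 peak in the pooled list (red), with both printed beside the bar. Olfactory receptors, keratin-associated proteins and type I interferons have no red bar, whereas 5 of 5 bZIP factors and 5 of 6 frizzled receptors had a peak.

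Single-exon transcription factors were unevenly represented. Of 8 SOX genes 4 had peaks, 18 in all, with a median of 55.5 reads. SOX11 and SOX4, the neural SoxC factors, had 7 and 5 of these. SOX12, the other SoxC gene, had 3 peaks with up to 57 reads, all at a place shared with the antisense gene NRSN2-AS1. SOX2 had 3 with up to 13 reads, all shared with another gene, and SOX1, SOX3, SOX14 and SOX21 had none. Of 17 forkhead genes 2 had a peak: FOXC1, with 24, 23 and 40 reads from 5′ to 3′, and FOXD4L1 with 11 reads. The 15 without a peak included FOXC2, FOXD3 and FOXQ1. Of 4 POU genes POU3F1 (12 and 20 reads), POU3F2 (13 and 14 reads) and POU5F2 (at most 8) had peaks, and POU3F4 had none.

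Of 10 bHLH genes, 4 had peaks. ATOH7, a proneural factor of the retina, had 1 peak of 53 reads whose 3′ edge was 379 bp past the annotated end. BHLHE22, a neuronal factor, had 3 peaks of 28, 22 and 56 reads, the tallest at the transcript end. NEUROG1 reached 11 reads and MSGN1 5. Each of the 5 bZIP genes had a peak at its transcript end. JUNB reached 78 reads, at a place shared with HOOK2 on the other strand, CEBPB 45, and CEBPA and CEBPD 20 each. The CEBPA peak also shared its place with another gene. INSM1, a zinc finger factor of neuroendocrine cells, had 57 reads in its 3′ UTR and 42 at its end, and INSM2 had at most 13.

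Of 4 genes of immediate early and signal feedback proteins, IER5, its paralogue IER5L and the Notch feedback gene NRARP had 10 peaks with 46 to 80 reads, and CITED4 had none. All 10 exceeded the upper quartile of all member peaks, which was 39 reads. The peaks of IER5L and 2 of the 3 of NRARP shared their place with another gene. Among heat shock genes HSPA1B had 42 reads at its end, with an AATAAA before the edge and another annotated gene at the summit. Reads from HSPA1B cannot be told from those of near-identical copies, since a read could map to up to 20 places and still be used. DNAJC30, a mitochondrial J protein, had 3 peaks of 23, 28 and 28 reads.

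Receptors and signalling genes followed. Of 6 frizzled genes, which encode Wnt receptors, 5 had peaks, 15 in all and none shared with another gene. FZD2 had 5, FZD1 4, FZD7 3, FZD8 2 and FZD10 1, and FZD9 had none. The tallest had 59 reads in FZD2, 51 in FZD8, 40 in FZD7, 24 in FZD1 and 8 in FZD10. Among 10 amine receptor genes ADRA2A, an α2-adrenergic receptor, stood at 47 reads over a background of 1.81, whereas ADRA2B had 10, and ADRB1 and HTR1B 5 each. ADRA2A had 1 peak, 303 bp wide, ending 30 bp past the annotated end with AATAAA upstream. Of 26 other G protein-coupled receptor genes 4 had a peak, GPR27 with 52 reads among them. KCNF1, with 9 reads, was the 1 potassium channel gene of 5 with a peak.

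Of 6 small GTPase genes RHOB, RRAGA and RAP2B had peaks. RHOB, a small GTPase of endosomes, had 74 reads in its 3′ UTR and 69 in a second peak, 1727 bp wide, that ended 1546 bp past the annotated end. RRAGA, a Rag GTPase of the amino acid branch of mTORC1 signalling, had 60 reads near its end and 34 in a peak ending 626 bp past it. Of 41 genes for ubiquitin ligase and kelch proteins 12 had 28 peaks, led by IRF2BPL with 59 reads, KBTBD6 with 56 and KCTD12 with 49. Of 6 PUR and TSPY-like genes 4 had 11 peaks, of which PURB gave 5. The tallest, with 52 reads in TSPYL4, shared its place with NT5DC1 on the other strand. LRRC10B had 16 reads at its annotated end and 22 in a peak ending 478 bp past it.

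Of 30 retrocopies and intronless paralogues 9 had peaks. MAGEF1, a MAGE family gene, had 67 reads, and EIF5AL1, a copy of the translation factor gene EIF5A, had 14 and 38. MOCS3, an enzyme of molybdenum cofactor synthesis, had 5 peaks of 14 to 30 reads. PABPC3, a copy of PABPC1, had 8 reads inside its coding sequence, at a place shared with another gene. A copy that resembles its spliced parent gene may share reads with it, and the pooled list does not separate them.

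The tallest nuclear peaks with no other annotated gene at the summit were led by SOX11 with 91 reads and HNRNPA0, an RNA-binding hnRNP protein, with 89. They were followed by IER5 with 80, TMEM271 with 76, RHOB with 74 and BLOC1S4, a subunit of the BLOC-1 complex of endosomal sorting, with 73. MAGEF1 had 67, SMIM10L1 63, the talin rod domain protein TLNRD1 61 and RRAGA 60. In 6 of these 10 genes (SOX11, HNRNPA0, TMEM271, RHOB, SMIM10L1 and TLNRD1) the tallest summit lay in the 3′ UTR before the transcript end. The TMEM271 peak, however, was 1197 bp wide, and its 3′ edge was 380 bp past the annotated end. In the other 4 it lay at the end. Peaks shared with another gene reached as high: PCBP1, a poly(C)-binding protein, had 101 reads at its end and HEXIM1, an inhibitor of the kinase complex P-TEFb, had 86 and 92, each at a place where an antisense gene is annotated. These were chosen after their values were seen. C6orf226 had 85 and RBM15B 79, and there the gene on the other strand, RPL7L1 and DCAF1, is protein-coding.

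SOX11 showed how peaks were spread along a long 3′ UTR. Its exon of 9002 bp (chr2:5692384-5701385) holds a 3′ UTR of 7341 bp, and all 7 peaks lay in it. From 5′ to 3′ they had 65, 47, 91, 61, 77, 60 and 62 reads. The first 4 ended 6990, 6182, 5523 and 5101 bp before the annotated end, and of these the second alone, with an ATTAAA, had a hexamer in the 100 bp before its edge. Each of the last 3 had an AATAAA there, and the last ended 4 bp past the annotated end. The last 3 share their place with the same-strand gene ENSG00000242540. The local background, the reads expected at the summit from the surrounding 10 kb, was 14.8 to 20.3 reads, against a median of 3.43 over all members.

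HNRNPA0 (chr5:137745651-137754363, minus strand) had 64, 61, 71, 89 and 45 reads at 5 peaks, all in its 3′ UTR of 7501 bp. The tallest was 1013 bp wide, ended 4542 bp before the annotated end and had no hexamer before its edge. No peak lay at the annotated end, and the last ended 1920 bp before it. KCTD12 (chr13:76880175-76886405, minus strand), an auxiliary subunit of GABA-B receptors, had 6 peaks of 42, 44, 40, 28, 32 and 49 reads. All had a hexamer, and the tallest was the last, which ended 2 bp past the annotated end with an AATAAA.

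IER5 (chr1:181088700-181092900, plus strand) had 5 peaks of 68, 51, 70, 80 and 55 reads, of which the last ended 731 bp past the annotated end, with an AATAAA. FZD2 (chr17:44557484-44561262, plus strand) had 40, 25, 59, 35 and 56 reads. The peak of 35 reads ended 1 bp before the annotated end, and the next, taller, ended 552 bp past it with no hexamer. SOX4 (chr6:21593751-21598619, plus strand) had 56, 56, 53 and 55 reads at 4 peaks from the end of the coding sequence to 550 bp past the annotated end, so the 4 were of nearly equal height. The third of these ended 2 bp before the annotated end, with an AATAAA. Another SOX4 peak, of 33 reads, lay in the 5′ UTR before a run of A and is described with the A stretches.

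**Figure D2:**
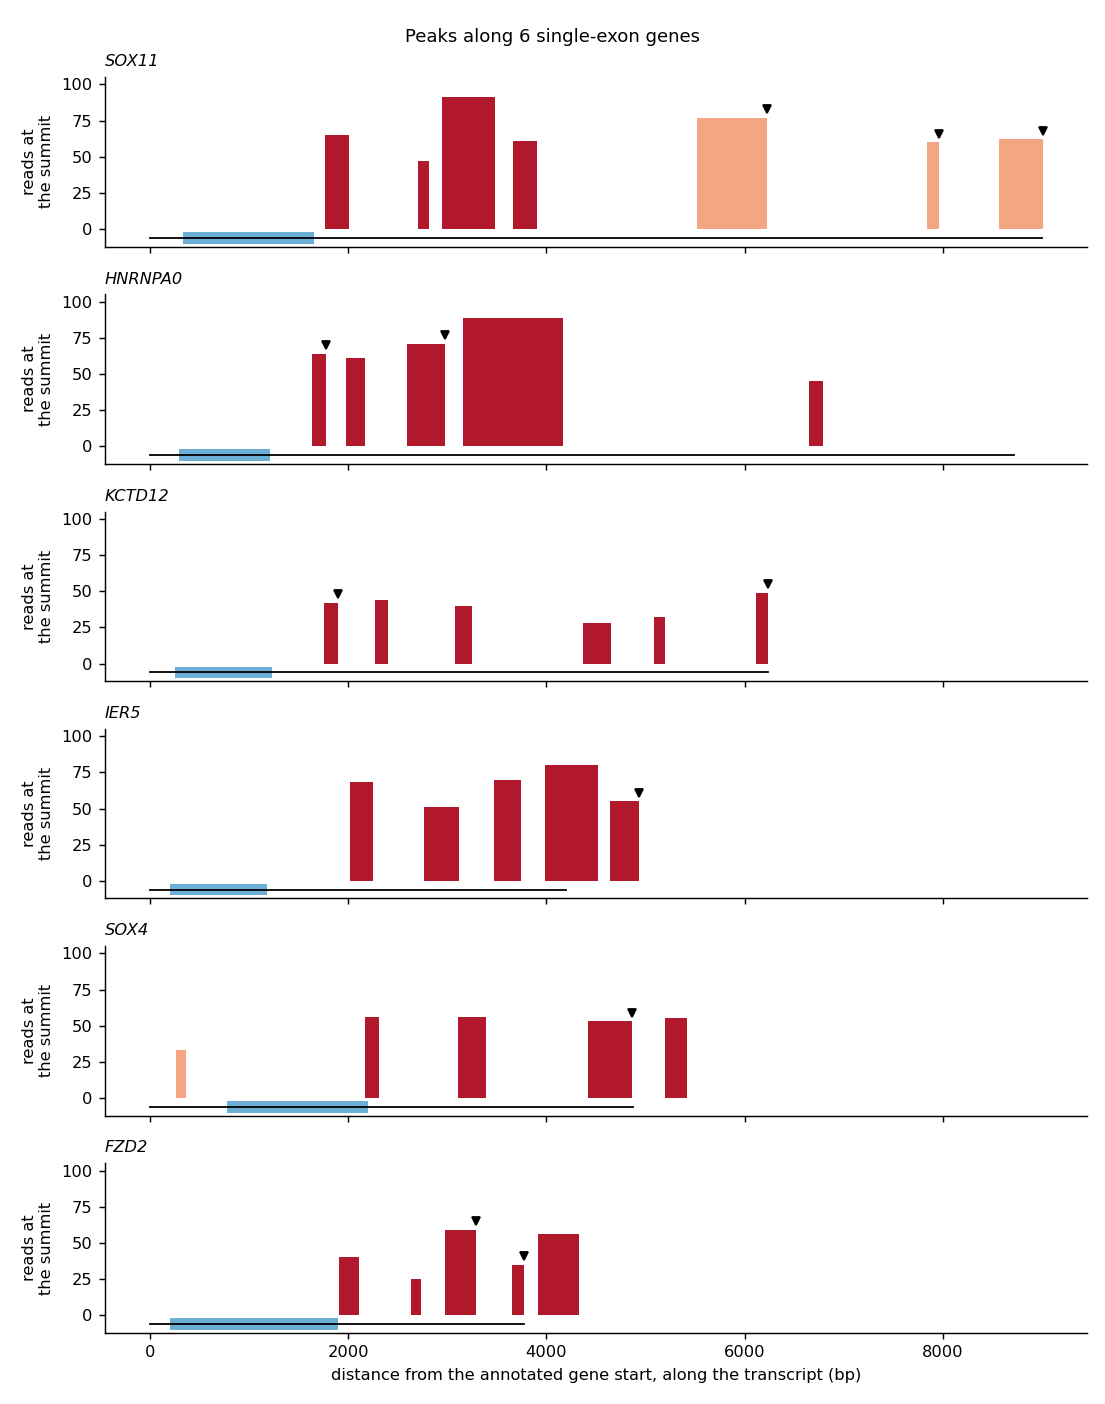
Peaks along 6 single-exon genes, drawn from the annotated gene start (0) in bp. Bar width is the peak width and bar height the reads at the summit, red where no other gene is annotated and orange where one is. A triangle at the 3′ edge marks an AATAAA within 100 bp before it, the black line is the annotated exon and the blue box its coding sequence. In SOX11 and HNRNPA0 the tallest bars, at 91 and 89 reads, stand 5523 and 4542 bp before the annotated end.

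PURB (chr7:44876299-44885530, minus strand), which binds single-stranded nucleic acids, had 28, 15, 32, 16 and 25 reads. Its last peak ended 1 bp past the annotated end. FEM1A, a substrate receptor of a cullin ubiquitin ligase, had 28, 28, 38, 26, 21, 27 and 24 reads, the first at a place shared with another gene. Its second and last peaks and its first had a hexamer, and the 4 between them had none. MOCS3 had 14, 30, 29, 17 and 23 reads, and its last peak ended 208 bp before the annotated end. PGBD4, a gene derived from a piggyBac transposase, had 16 and 18 reads in its coding sequence and 18, 12 and 23 in its 3′ UTR. SMIM10L1 had 63, 27, 38 and 30 reads, the first and tallest over 954 bp with an AATAAA before its edge.

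Of the 245 genes, 121 had 1 peak, 65 had 2 and 59 had 3 or more, with at most 7. Genes with long 3′ UTRs had more. Of 296 genes with no annotated 3′ UTR beyond the stop codon 22 had a peak (7.43%, 4.96 to 11.0%). The share was 16.8% (13.1 to 21.4%) for 315 genes with a 3′ UTR up to 500 bp, 47.1% (40.7 to 53.6%) for 227 genes with 501 to 2000 bp and 76.8% (66.6 to 84.6%) for 82 genes with more than 2000 bp. Among those with a peak, the number of peaks was 1.25 ± 0.434 (SD over genes), 1.64 ± 0.862 and 3.38 ± 1.44 in these 3 classes, and the median of the tallest summit was 20, 25 and 34 reads. Height and length moved together here, and their parts in the number of peaks were not tested. By the rule, genes without an annotated 3′ UTR could be entered only in their coding sequence or 5′ UTR, or within 600 bp past the end. Over the 121 nuclear genes whose peaks were all unshared, Spearman's rank correlation between the number of peaks and 3′ UTR length was 0.66, and between the number of peaks and the tallest summit 0.39. These describe genes of 1 pooled list and carry no test.

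**Figure D3:**
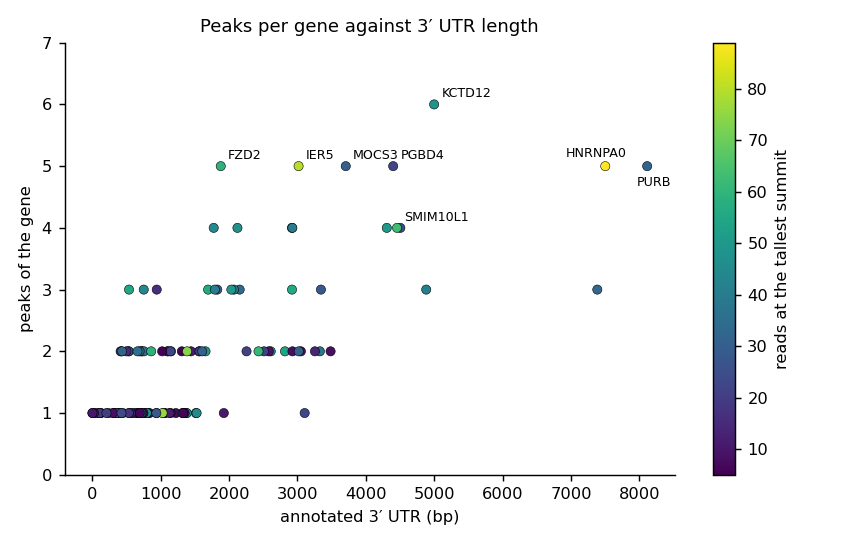
Number of peaks of a gene against the length of its annotated 3′ UTR in bp, for the 121 nuclear genes with all peaks at places of no other gene. Colour gives the reads at the tallest summit. Genes with 4 or more peaks had 3′ UTRs of over 1000 bp, and the rank correlation was 0.66.

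In 70 nuclear genes with 2 or more unshared peaks in the 3′ UTR or at the end, neighbouring summits of a gene were a median of 664 bp apart. The summit furthest 3′ was the tallest, or tied for it, in 31 (44.3%, 33.2 to 55.9%), and the first was in 27 (38.6%, 28.0 to 50.3%). In 5926 multi-exon genes with such peaks the furthest was tallest in 48.5% (47.3 to 49.8%) and the first in 31.1% (30 to 32.3%). The difference in the former share was -4.26 percentage points, with an interval of -15.4 to 7.44 that includes 0. Heights within a gene were similar, with a median ratio of the tallest to the lowest of 1.70 in the single-exon and 2.00 in the multi-exon genes. These are ratios of reads at the summit, not of how often a site was used.

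The member peaks were placed differently from the 38654 exonic peaks of multi-exon genes. Of the 479 members 231 (48.2%, 43.8 to 52.7%) lay at a transcript end, against 60.2% in multi-exon genes, a difference of -12 percentage points (-16.4 to -7.47). A further 220 (45.9%) lay in the 3′ UTR before the end, against 15.9%, a difference of 30 points (25.6 to 34.5). Places were set by the summit, so a wide peak of this class can reach the annotated end or past it. Coding sequence held 21 (4.38%) against 12.6%. The 5′ UTR held 7 (1.46%) against 11.3%, but in multi-exon genes this class takes every other exonic peak before the gene's last coding base. It can hold non-coding exons and 3′ UTRs of shorter isoforms, so the 11.3% can be too high and the 15.9% too low. Intervals (Newcombe) cover counting error only and take peaks of 1 gene as independent. The annotation also differs: 903 of the 920 single-exon genes have 1 annotated transcript, and so 1 annotated end, whereas multi-exon genes have a median of 6 transcripts. Of the multi-exon peaks at transcript ends, 24.4% lay before the gene's last coding base outside coding sequence, and 10.4% lay in coding sequence. For members at transcript ends these shares were 0% and 2.60%. The 60.2% thus includes ends of shorter transcripts inside the gene, and the lower share in members does not show fewer peaks at the gene's last end. The part of the annotation in the placement was not tested. Among peaks at places of no other gene the 2 differences were -15.4 and 36.4 points.

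**Figure D4:**
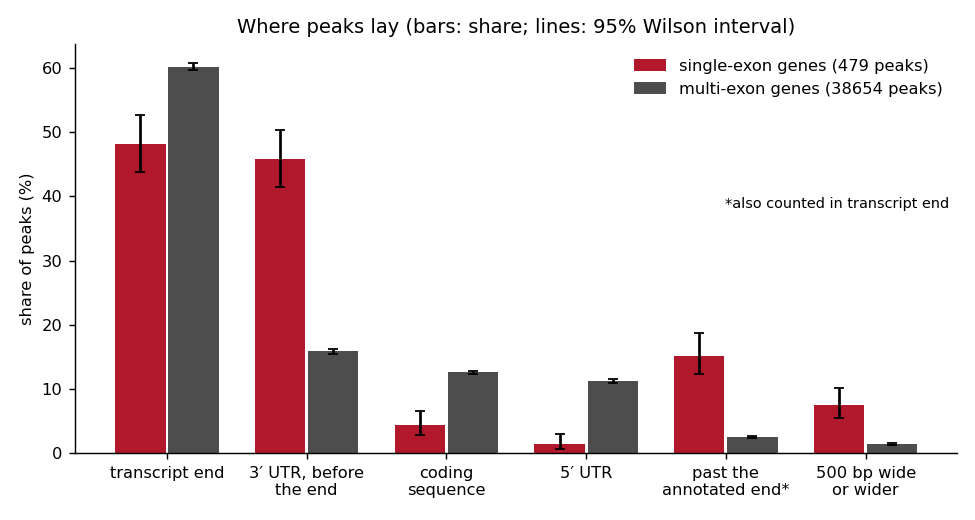
Share of peaks (%) in each place for the 479 peaks of single-exon genes (red) and 38654 exonic peaks of multi-exon genes (grey), with 95% Wilson intervals as lines. In grey the 5′ UTR class takes every other exonic peak before the last coding base of the gene. The share in the 3′ UTR before the end is 45.9% in red and 15.9% in grey, and the share past the annotated end, which is also counted within the transcript end, is 15.2% and 2.61%.

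Past the end of the annotated gene lay 73 members (15.2%), against 2.61% of multi-exon peaks, a difference of 12.6 points (9.69 to 16.1). Without places shared with another gene it was 13.3% against 2.06%. Of the 73, 36 (49.3%, 38.2 to 60.5%) had a hexamer, against 51.7% of the 1008 such peaks of multi-exon genes. RHOB, FZD2, IER5, SOX4, RRAGA, MAGEF1, KBTBD6, LRRC10B and DNAJC30 each had such a peak. The limit of 600 bp cut through a continuing series of peaks: 15 members lay over 500 bp past the end, with 7 to 55 reads, and another 15 peaks lay 600 to 700 bp past it, with 5 to 54 reads. The 3′ edge was within 50 bp of an annotated end for 117 members (24.4%), against 41.7% of multi-exon peaks, a difference of -17.3 points (-21.0 to -13.2), and of -13.6 points (-18.7 to -8.04) among peaks under 200 bp wide. It was more than 1000 bp before the end in 148 (30.9%), against 18.1%.

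Members were also taller and wider. The median was 25 reads at the summit (interval of the median 23 to 28, quartiles 16 to 39), against 16 (16 to 17) for multi-exon peaks. The median width was 161 bp (141 to 179), against 120 bp (119 to 120). The local background was 3.43 reads (3.07 to 3.71), against 1.23 (1.22 to 1.24), and the median fold over it was 5.82, against 6.91, so members stood higher in reads and lower in fold. At least 500 bp wide were 36 members in 33 genes (7.52%, against 1.46%), 5 of them mitochondrial. Of these 36, 17 had a hexamer before the 3′ edge, and 24 held an AATAAA somewhere within the peak.

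A PAS hexamer lay in the 100 bp before the 3′ edge of 342 members (71.4%, 67.2 to 75.3%), against 75.5% (75.1 to 75.9%) of multi-exon peaks. The difference was -4.10 points (-8.33 to -0.216). It did not hold in every subset: its interval included 0 at places of no other gene (-4.55, -10.2 to 0.539) and in the 3′ UTR before the end (-3.66, -10 to 1.95), and its sign turned among peaks under 200 bp wide, where 78.5% of 289 members and 76.3% of 29343 multi-exon peaks had a hexamer (2.22, -2.90 to 6.58). Where the 100 bp were taken to end at the summit instead of the edge, 39.9% of members had a hexamer. A mirrored window was the 100 bp at the other edge of the peak, read on the opposite strand. There 52.6% of members and 54.1% of multi-exon peaks held a hexamer, a measure of how often the words occur in nearby sequence. Only in peaks 100 bp wide do the 2 windows cover the same bases. AATAAA was found before 173 members (36.1%, 31.9 to 40.5%) and in the mirrored window of 14.0%, and ATTAAA before 76 (15.9%). These were followed by AAGAAA with 55 and TATAAA with 52. A peak may hold several hexamers, and they may overlap. Among all widths at transcript ends 74.5% of members had a hexamer, against 81.6% of multi-exon peaks (difference -7.11, -13.1 to -1.90). In the 3′ UTR before the end it was 72.3% against 75.9%.

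The 118 AATAAA before members at transcript ends began 15 to 34 bp before the edge in 64 cases (54.2%), against 69.6% of the 13532 at transcript ends of multi-exon genes. The 100 bp before the edge had a GC content of 34.3% ± 9.20 (SD over peaks) in members with a hexamer and 47.0% ± 10.5 in the 137 without. The latter had a median width of 224 bp, against 141 bp for the former, and almost the same height (26 and 24.5 reads). The hexamers are themselves rich in A and T, so this split by hexamer partly sets the GC content.

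Shares were also taken by height, for nuclear members. Of 51 members with fewer than 10 reads 78.4% (65.4 to 87.5%) had a hexamer, and of 61 with 50 reads or more 68.9% (56.4 to 79.1%). These intervals overlap. In multi-exon genes the shares were 66.2% (65.1 to 67.2%) and 78.1% (75.6 to 80.4%). The share of members whose 3′ edge was within 50 bp of an annotated end was 39.2% for those with fewer than 10 reads and 14.8% for those with 50 or more, against 35.8% and 43.8% in multi-exon genes. The members with 50 or more reads had a median width of 289 bp, and 26.2% of them (16.8 to 38.4%) were 500 bp wide or wider, against 15.4% (13.4 to 17.6%) of multi-exon peaks with 50 or more. These intervals overlap too. Overlap alone does not decide in either case whether the shares differ, and no interval of these differences was taken.

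**Figure D5:**
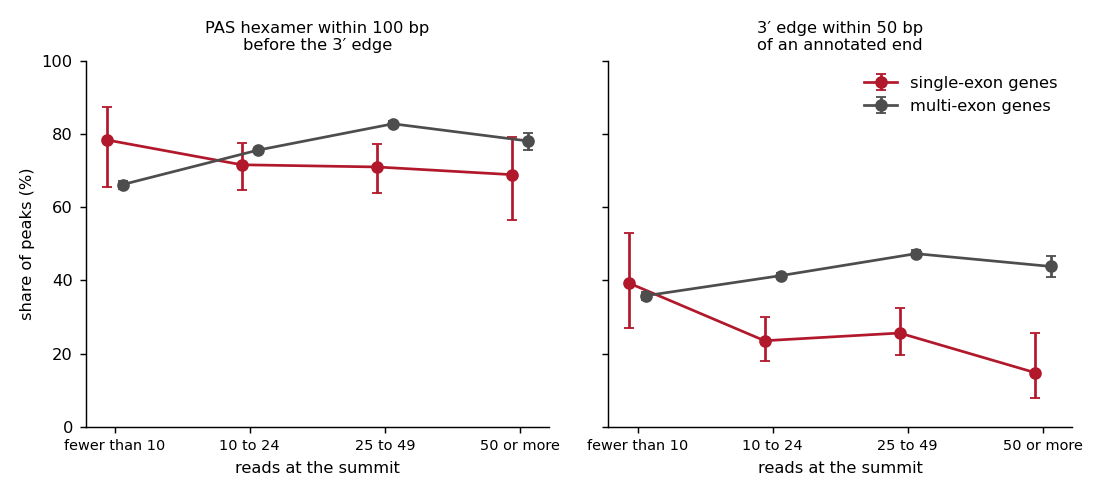
Share of peaks (%) with a PAS hexamer (left) and with the 3′ edge within 50 bp of an annotated end (right), by reads at the summit, for nuclear single-exon (red) and multi-exon genes (grey). Lines are 95% Wilson intervals. At 50 reads or more 14.8% of single-exon peaks and 43.8% of multi-exon peaks ended within 50 bp of an annotated end.

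A primer of T bases can also anneal to a run of A inside an RNA, so the sequence past the 3′ edge was examined. Within 50 bp past the edge, 25 bases with at least 22 A were found for 5 members (1.04%, against 460 of the 38654 multi-exon peaks). With at least 18 A it was 5.64%, against 6.29%, a difference of -0.650 points (-2.40 to 1.80). The 5 were in FEM1A (27 reads), NANOGP8 (9), HSPB9 (23), SOX4 (33) and POU3F1 (12). Those of HSPB9 and SOX4 shared their place with another gene. The 3 tallest are shown, with the 30 genomic bases just past the 3′ edge and each A in capitals. None of the 3 had a hexamer before its edge. The study's methods removed peaks that had an A stretch of this kind and no PAS motif, and the deposited list still holds these 3. The study looked for motifs in 100 bp upstream of the peak, whereas the window here ends at the 3′ edge. Whether these 3 had a motif in the study's window was not checked.
SOX4, 5′ UTR, chr6:21594119-21594148, plus strand: gAAAAAgAAAAAAAAAAAAAAAAgActtgc
FEM1A, 3′ UTR, chr19:4799909-4799938, plus strand: AAAAAAAAAAAAAAAAAAAAAAAAAtgggg
HSPB9, past the end, chr17:42123703-42123732, plus strand: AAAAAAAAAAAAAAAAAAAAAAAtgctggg

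The 21 members in coding sequence were in 18 genes, and 6 of the 21 were mitochondrial. Of the 21, 9 (42.9%, 24.5 to 63.5%) had a hexamer and none an AATAAA, against 59.4% and 13.8% of 4876 coding peaks of multi-exon genes. The tallest nuclear ones had 28 reads in TSPYL4, 22 in CD248 and 20 in ENSG00000288626. TTC30A and PGBD4 had up to 18, GSPT2, a copy of the translation termination factor gene GSPT1, and KLLN 17 each, and SFN, which encodes 14-3-3σ, 15. The peaks of CD248, ENSG00000288626 and TTC30A shared their place with another gene. The 7 members in a 5′ UTR had 11 to 33 reads, and 5 of the 7 shared their place with another gene.

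The 13 mitochondrially encoded genes have no introns and encode subunits of the respiratory chain and of ATP synthase. Peaks were found for 6 of them, and these stood apart in height. MT-ND1, MT-ND2, MT-CO1, MT-ND5, MT-CYB and MT-ND6 had 8 member peaks with 188 to 200 reads, at or near the limit of the pileup. MT-ND3, MT-ND4, MT-ND4L, MT-CO2, MT-CO3, MT-ATP6 and MT-ATP8 had none. The local background at the 8 peaks was 110 to 155 reads, so the fold was 1.27 to 1.80 and −log10 q 1.39 to 11.1. All 8 summits lay in coding sequence, and 2 of the peaks (of MT-ND2 and MT-ND6) counted as transcript ends. MT-ND6 is encoded on the other strand from its neighbour MT-ND5, and its peak of 855 bp reached into both. Since the heights are at or near the limit, these values give no order of expression among the genes. Outside the mitochondrial genome the members ran from 4 to 101 reads.

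Of the 479 members 208 (43.4%) had their summit in, or up to 600 bp past, another annotated gene, against 21.6% of multi-exon peaks (difference 21.8 points, 17.4 to 26.3). The multi-exon set leaves out 1655 peaks that lay in such genes on both strands, while members with a gene on the other strand were kept. With the 1655 put back the multi-exon share was 24.8% and the difference 18.6 points (14.2 to 23.1). The other gene lay on the same strand for 106 and on the opposite strand for 118, a protein-coding one for 70 and 74 of them. Because the list gives no strand, such a peak cannot be assigned to 1 of the genes. The 271 others lay in 138 genes. They had a median of 27 reads, and a hexamer in 71.2%, against 71.4% of all members. For comparison, 32 peaks lay in the single-exon histone genes left out. They had a median of 26 reads, and 46.9% (30.9 to 63.6%) had a hexamer.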

How the data were processed

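Per the study's methods and the submitters' processing notes, the authors aligned trimmed reads to GRCh38 with STAR 2.5.1b, merged the samples and called peaks with MACS2 2.1.1 without a control, each read extended to 100 bp. The merged samples are taken to be the 6 libraries. The deposited list gives a fold enrichment (the ratio of pileup to local background at the summit, with 1 added to each), a −log10 p-value, a −log10 q-value and the offset of the summit. Per-library depth is unknown, so precision is given as 95% counting intervals (Wilson for shares, Newcombe for differences, order statistics for medians).

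From each deposited fold and −log10 p, the pileup and background were solved. On simulated data 100% of 9629 peaks were recovered, and the largest misfit in the list was 0.000172. Simulated backgrounds were nearly all lower than those of SOX11, HNRNPA0, IER5, RHOB and the mitochondrial peaks. The simulation thus does not check these, and for them only the misfit is known. Gene models were Gencode release 44. A peak was given to the gene by its summit, and strand came from the gene. Of 40309 peaks in exons of multi-exon genes, or up to 600 bp past their ends, 1655 lay in such genes on both strands and were left out. A coding sequence or 5′ UTR peak is one not at a transcript end. The 5′ UTR class took any such peak outside coding sequence and before the gene's last coding base, and 3′ UTR meant past that base. The 12 hexamers were AATAAA, then ATTAAA or ACTAAA or AGTAAA with another second base, further TATAAA or CATAAA or GATAAA with another first base, the words AAGAAA or AATGAA with a G inside, besides AATATA or AATACA or AATAGA with another base near the end. They were searched on the gene strand. Named were the 10 nuclear genes with the tallest and the 10 with the most unshared peaks, the 2 tallest of each family list, and the 13 mitochondrial genes. Some genes that this rule names are not reported here. Others named within a list or a count were added after their values were seen. The members, lists and rules were chosen with earlier results of these data known. Python 3.11.15, pandas 2.3.3, scipy 1.17.1 and pysam 0.24.0 were used. No test was run, since the list pools all libraries. Alternatives were −log10 q cutoffs, a shorter stretch past the end, canonical transcripts, unshared places, no mitochondrial genes, and other end, hexamer and A settings.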

Additional observations from a re-analysis of the deposited data

How the results depend on the processing

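No paired analysis was possible because every library went into 1 merged peak list, and for the same reason no replicate could be left out. Of 56 alternative values 35 stayed within the interval of the reported value (for counts, within 1.5 times) 20 moved and 1 changed sign. With −log10 q of at least 20 there were 107 peaks in 88 genes (9.57% of genes), with a median of 47 reads, 58.9% at transcript ends, 0% in coding sequence and 0% with an A stretch. With no other gene at the summit there were 271 peaks in 138 genes (15%), 43.5% at transcript ends. Genes with a single-exon canonical transcript gave 734 peaks, in 30.3% of genes, with a median of 22 reads and 41.4% at transcript ends. Up to 100 bp past the end, 40.8% were at transcript ends, and with 100 bp either side of an end 33.6%. The hexamer share was 36.1% for AATAAA alone and 39.9% for the 100 bp that end at the summit. At least 18 A past the edge gave 5.64%. The difference in hexamer share from multi-exon peaks ran from -7.11 to -4.10 points under the other settings, with an interval that included 0 without shared places (-10.2 to 0.539). For peaks under 200 bp wide, a setting chosen after seeing the data, it was 2.22 (-2.90 to 6.58), and the cause was not tested. Peak heights are limited to 200 reads, and to 100 from 1 strand if 1 read per position and strand was kept. Weak ends below the peak caller's threshold are not listed.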
